A study of Mus musculus with 90 samples.

Results

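Oxidative phosphorylation genes were picked from the array annotation by symbol: names beginning with Ndufa, Ndufb, Ndufc, Ndufs, Ndufv, Uqcr or Atp5, the names Sdha to Sdhd, and names beginning with Cox4 to Cox8. The rule found 90 genes among the 18193 measured, and where a gene had several probe sets the brightest on average was used. They comprise 73 broadly expressed subunits, 8 assembly factors of complex I (Ndufaf genes, which are not subunits of the finished enzyme), 8 tissue forms or paralogues, and Cox7a2l, a factor that joins respiratory complexes into supercomplexes. The subunits fall into complex I (34 genes), complex II (4), complex III (8), complex IV (10) and complex V (17). Ndufa4 was counted in complex IV, where the protein is now placed. The rule takes nuclear genes alone, so subunits encoded in mitochondrial DNA were not analysed here.

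The 5 complexes sit in the inner mitochondrial membrane. Complex I takes electrons from NADH and complex II takes them from succinate, complex III passes them on to cytochrome c, and complex IV delivers them to oxygen. The proton gradient built by complexes I, III and IV drives complex V, the ATP synthase. In melanoma, respiration runs beside glycolysis, and both activated T cells and tumour cells depend on mitochondria for growth.

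RNA came from 90 subcutaneous melanoma allografts, each measured on 1 Affymetrix mouse array. The labels give the same genotype (Hgftg;Cdk4R24C/R24C) and mouse strain (B6.cBrd) for every group. Tumours given anti-PD-L1 (a mouse IgG1 carrying D265A, 10 mg/kg) were grouped by how they grew. Stabilization tumours (3) showed no volume change between consecutive measurements. Relapse tumours (6) had regressed and grown back, and were taken after 4 to 10 doses. Responder tumours (27) had lost at least 5% of their volume and were taken after 2 to 12 doses. NonResponder tumours (23) kept growing and were taken at matching times. GrowthDelay tumours (2) appeared only once treatment had begun. Control IgG tumours (22) received an isotype antibody at 10 mg/kg and PBS tumours (7) received 10 ml/kg of buffer. The anti-PD-L1 groups were thus defined by outcome after treatment, not assigned, and the control IgG and PBS groups by the treatment given. The labels do not say that every array comes from a separate mouse. The p-values therefore measure only the spread between these samples.

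Sample titles fall into 4 number ranges, called title series here, whose meaning the labels do not give. The larger title series holds 53 arrays: 17 Responder, 14 NonResponder, 3 Relapse, 2 GrowthDelay, 14 control IgG and 3 PBS. The smaller holds 25 arrays: 3 Stabilization, 3 Relapse, 10 Responder and 9 NonResponder. The remaining series hold 8 control IgG arrays and 4 PBS arrays alone. Array medians lay between 5.71 and 5.9 on the log2 scale. In PBS replicate 5 the control probe sets at the 3' end of Gapdh and Actb exceeded those at the 5' end by 4.31 and 6.09, against at most 0.81 and 1.06 in every other array. Responder replicate 20 had a mean B cell marker value of 10.23, against a Responder median of 5.57, and NonResponder replicate 14 one of 9.96, against a NonResponder median of 5.44. Melanocyte markers, which define the labelled tumour type, had median group means from 8.89 in Stabilization tumours to 10.15 in NonResponder tumours.

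Promoters of respiratory genes are known for binding sites of the factor NRF1 and of ETS family factors such as GABPA. RefSeq promoter windows of GRCm38.p6, running from 250 bases before to 50 bases after the start, were at hand for 74 of the 90 genes. The NRF1 motif is GCGCA and GCGC parted by 1 base of any kind. It stood in windows of 17 of these genes, against 5.19% of all 27025 genes with a window and 8.63% of the 14369 on the array. The ETS motif CCGGAAG stood in windows of 19 genes (25.7%), against 9.93% of all genes with a window and 2159 of the 14369. Both strands were searched, and neither motif contains the other. Of the 62 subunit genes with a window, 4 held both motifs. CTTCCGG is the ETS motif read on the other strand. The 4 windows are printed to show the arrangement, 5' to 3' along the gene, with every match in capitals. They belong to Atp5k (subunit e of complex V, chr5:108434350-108434649, minus strand), Atp5h (peripheral stalk of complex V, chr11:115419870-115420169, minus strand), Sdhd (membrane anchor of complex II, chr9:50603800-50604099, minus strand) and Cox6a1 (complex IV, chr5:115348909-115349208, minus strand).
Atp5k: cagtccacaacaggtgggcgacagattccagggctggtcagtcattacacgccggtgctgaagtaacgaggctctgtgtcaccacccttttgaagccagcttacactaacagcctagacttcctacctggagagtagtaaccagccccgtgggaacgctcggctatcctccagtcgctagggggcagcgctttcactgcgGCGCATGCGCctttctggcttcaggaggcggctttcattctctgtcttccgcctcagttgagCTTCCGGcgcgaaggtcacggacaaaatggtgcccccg
Atp5h: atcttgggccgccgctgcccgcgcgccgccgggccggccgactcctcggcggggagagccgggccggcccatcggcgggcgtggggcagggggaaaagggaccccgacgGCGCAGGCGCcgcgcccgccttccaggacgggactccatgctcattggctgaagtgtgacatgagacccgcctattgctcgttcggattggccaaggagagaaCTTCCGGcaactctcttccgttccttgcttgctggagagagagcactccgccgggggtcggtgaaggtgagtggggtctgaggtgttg
Sdhd: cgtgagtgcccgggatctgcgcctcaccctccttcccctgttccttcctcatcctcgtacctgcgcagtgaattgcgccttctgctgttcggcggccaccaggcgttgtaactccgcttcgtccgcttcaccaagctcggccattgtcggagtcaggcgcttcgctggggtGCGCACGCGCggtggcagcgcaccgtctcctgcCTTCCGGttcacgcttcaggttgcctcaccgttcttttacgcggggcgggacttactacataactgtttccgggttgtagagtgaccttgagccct
Cox6a1: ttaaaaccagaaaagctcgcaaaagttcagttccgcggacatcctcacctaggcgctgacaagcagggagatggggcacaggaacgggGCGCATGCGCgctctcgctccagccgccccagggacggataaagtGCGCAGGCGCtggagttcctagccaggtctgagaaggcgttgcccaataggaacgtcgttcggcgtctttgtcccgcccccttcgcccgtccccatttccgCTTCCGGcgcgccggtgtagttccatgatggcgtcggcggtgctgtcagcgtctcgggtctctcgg
The Cox6a1 window held the NRF1 motif at 2 places. The matches are letters in a window and do not show that a factor binds.

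Averaged over all 73 subunits, the level in Stabilization tumours was 11.11, 11.53 and 11.90 (mean log2 value per array). Relapse tumours had a lowest, median and highest value of 11.58, 11.69 and 11.80, Responder tumours of 11.30, 11.69 and 12.05, and NonResponder tumours of 11.39, 11.91 and 12.13. The GrowthDelay arrays had 11.67 and 11.80, control IgG tumours 11.58, 11.92 and 12.08, and PBS tumours 11.82, 12.06 and 12.11. Every pair of groups overlapped except for the 6 Relapse arrays and the 2 GrowthDelay arrays, which all lay below the lowest PBS array. Medians of Relapse and Responder tumours were thus close to each other and below those of NonResponder, control IgG and PBS tumours, while the 3 Stabilization arrays spanned a wide range.

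**Figure D1:**
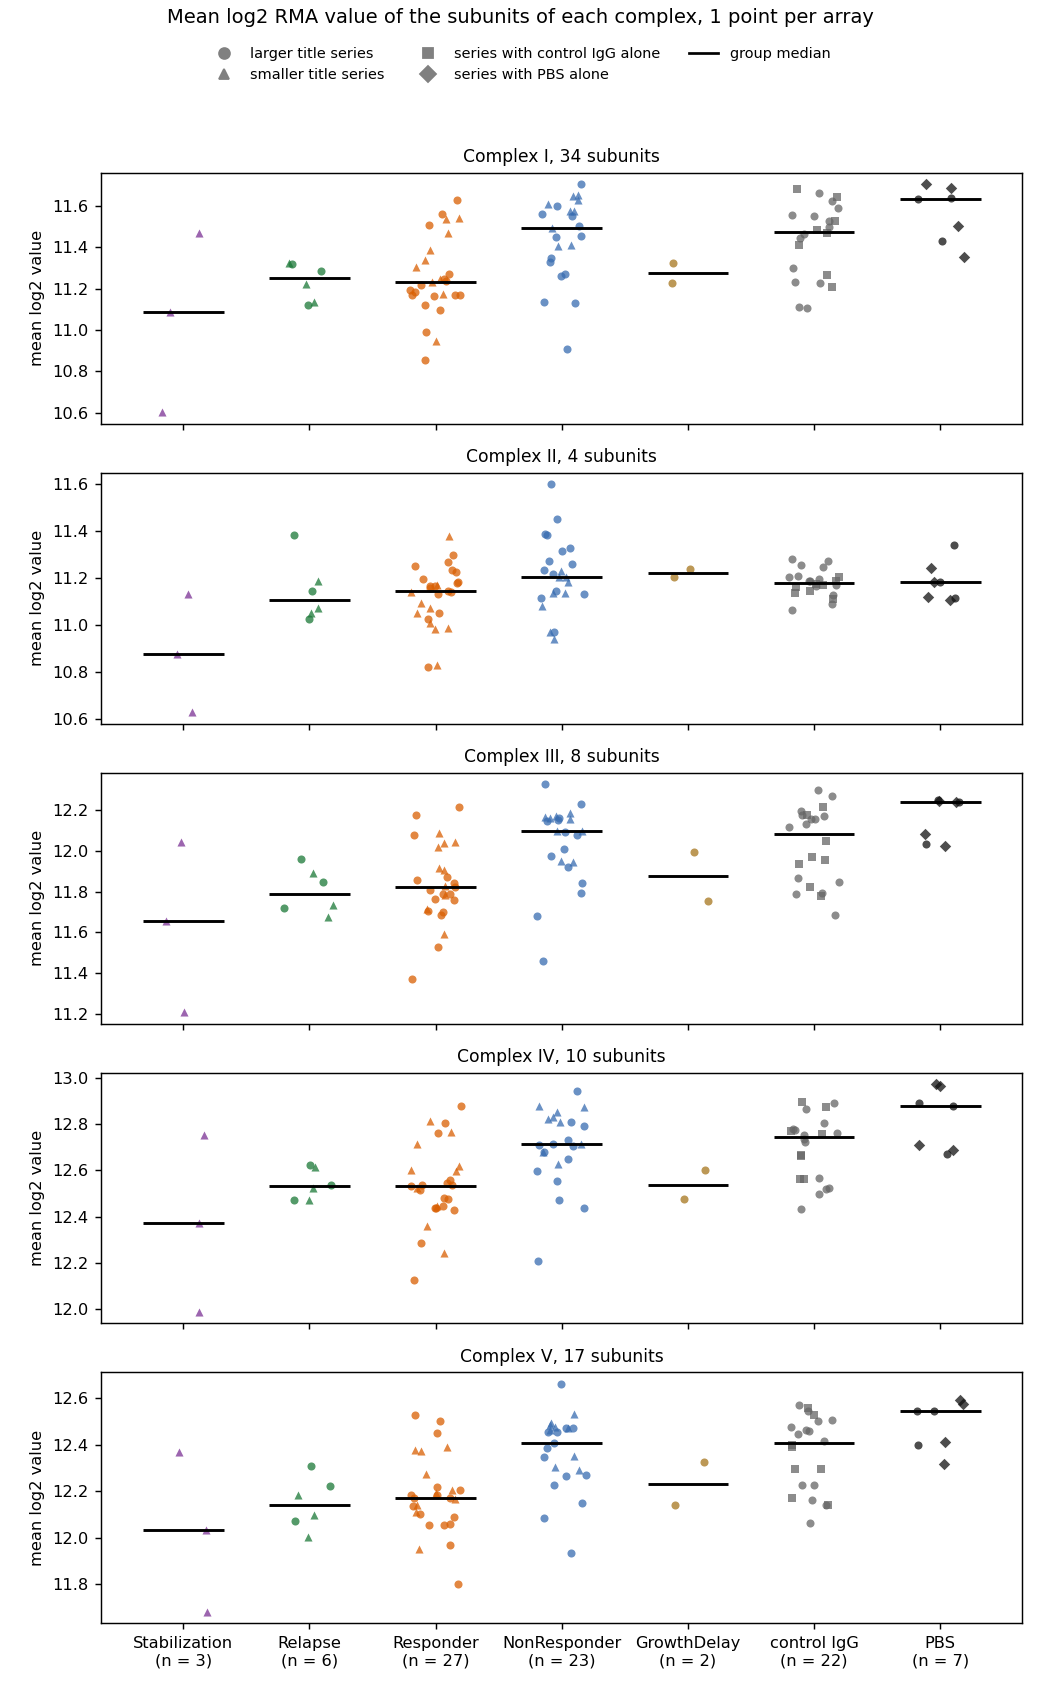
Mean log2 RMA value of the subunits of each complex (y axis, 1 panel per complex) for the 7 groups (x axis), with 1 point per array, symbols for the title series and a bar at the group median. In complex I the medians were 11.09 in Stabilization, 11.25 in Relapse and 11.23 in Responder tumours, against 11.49 in NonResponder, 11.47 in control IgG and 11.63 in PBS tumours, with overlapping points.

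All 5 complexes had a lower median in Responder than in NonResponder tumours. Complex I had a lowest, median and highest array mean of 10.85, 11.23 and 11.63 in Responder tumours, against 10.91, 11.49 and 11.71 in NonResponder tumours. Complex III had 11.37, 11.82 and 12.21 in Responder tumours, against 11.46, 12.09 and 12.33 in NonResponder tumours. For complex IV the corresponding values were 12.12, 12.53 and 12.88 in Responder tumours, against 12.20, 12.71 and 12.95 in NonResponder tumours. The ranges overlapped in each complex. Complex II differed least, with medians of 11.15 in Responder tumours and 11.21 in NonResponder tumours.

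Responder tumours had lower transcript levels of most oxidative phosphorylation genes than NonResponder tumours. In limma, fitted over all 18193 genes with Benjamini-Hochberg adjustment at 0.05, 58 of the 90 genes were lower, where 29.8% of all genes were lower, and 1 was higher, where 17.2% of all genes were higher. The median log2 difference was -0.18 over the 90 genes and -0.06 over all genes, and 81 of the 90 differences were negative. By complex, 23 of 34 subunits fell in complex I (median -0.18), 2 of 4 in complex II (-0.13), 5 of 8 in complex III (-0.23), 7 of 10 in complex IV (-0.15) and 12 of 17 in complex V (-0.21). No subunit rose. These are bulk tumours, in which fewer cells of a type and less RNA per cell cannot be told apart.

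**Figure D2:**
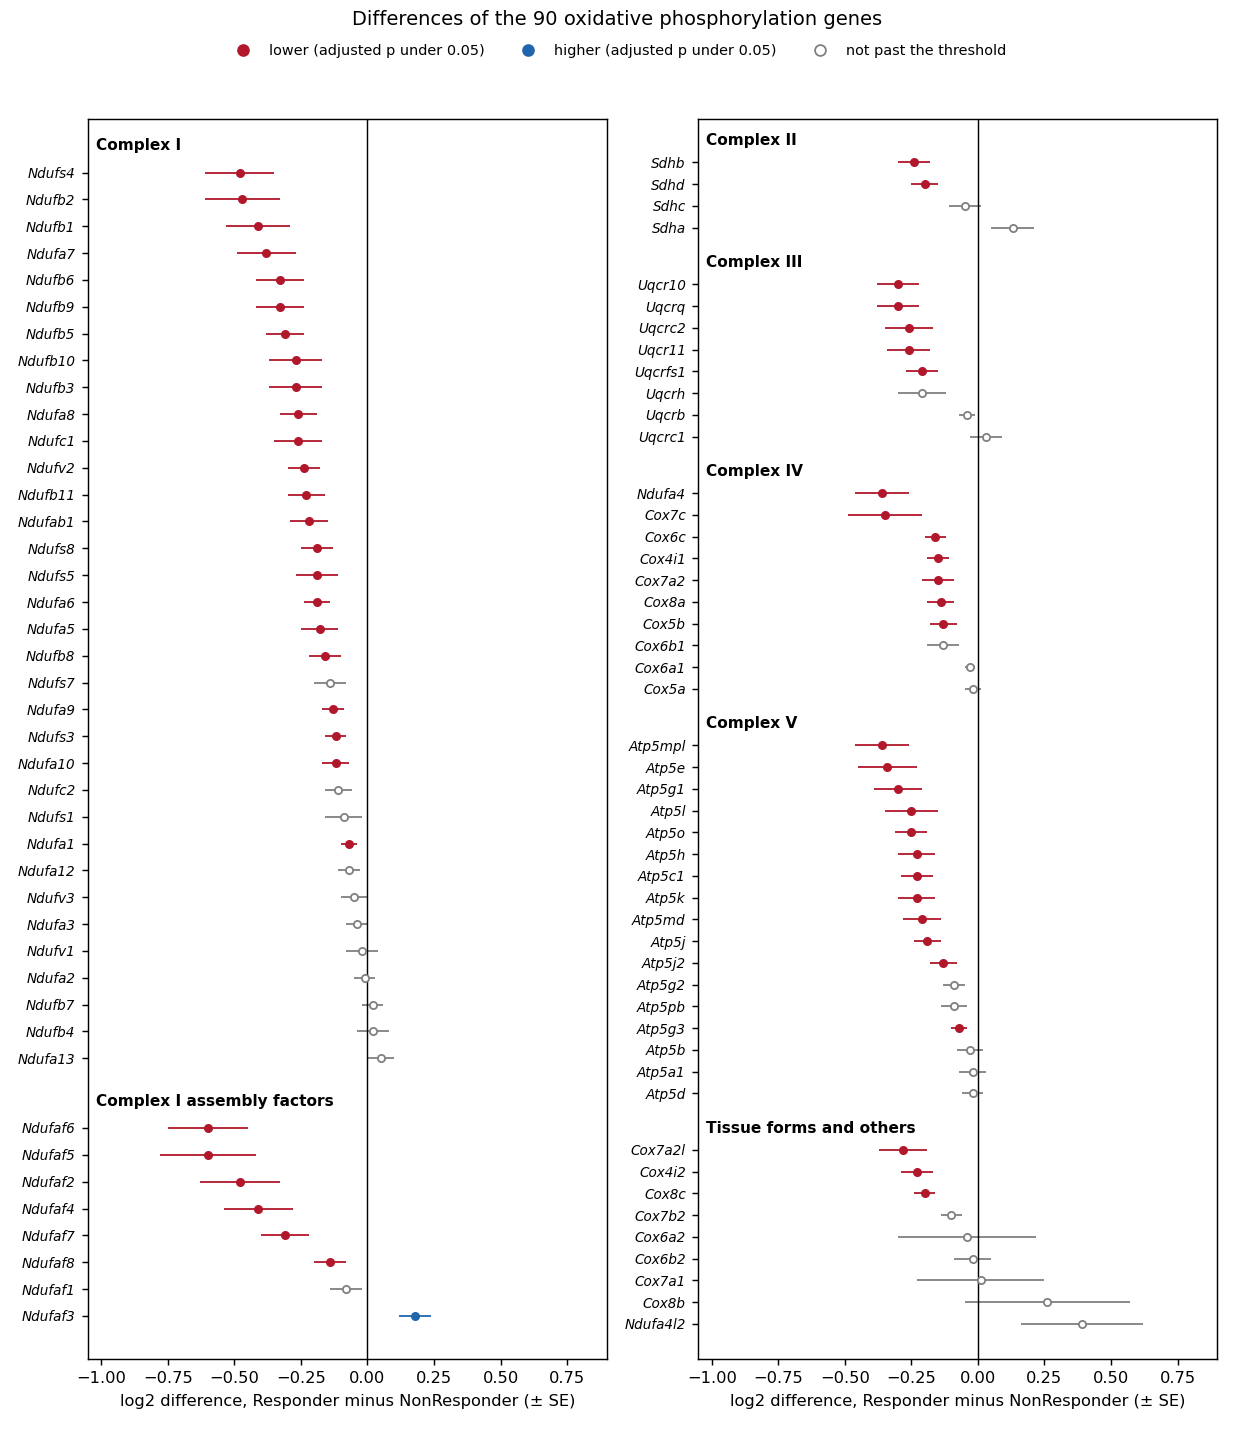
Log2 difference of Responder minus NonResponder tumours (x axis, bars are 1 SE from limma) for the 90 genes, grouped by complex and role. Filled points passed the adjusted threshold: 58 lie left of 0 and 1, Ndufaf3, right of it.

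Markers of 3 cell types moved as whole lists with this difference. All 7 measured T cell markers were higher in Responder tumours (mean log2 value per array 5.73 to 10.15, against 5.36 to 10.15 in NonResponder tumours), as were all 8 macrophage markers (8.63 to 12.06, against 8.53 to 12.01) and all 9 fibroblast markers (7.24 to 12.87, against 6.50 to 11.66). The melanocyte, erythroid, B cell and adipocyte lists were called in 1 direction only, there at rates close to those of all genes (29.8% lower, 17.2% higher). Of 10 melanocyte markers 3 were lower (6.70 to 10.43 in Responder tumours, against 8.39 to 10.50 in NonResponder tumours), as was 1 of 4 erythroid markers. Of 7 B cell and 6 adipocyte markers 1 each was higher. Melanocyte differences were negative in 9 of 10 markers (median -0.28) and adipocyte differences in 0 of 6 (median 0.66). In the smaller title series 5 of 10 melanocyte markers were lower, where 22.4% of all genes were. All 6 adipocyte markers were higher there, where 14.3% of all genes were. In the larger series 0 of either list passed. The part of these cell types in the fall of the respiratory genes was not tested. None of 14 skeletal muscle markers passed the threshold, but 6 of 27 Responder and 7 of 23 NonResponder arrays had a muscle marker mean over 2 log2 units above the median array. Without the 23 such arrays of all groups, 19 of the 90 genes were lower, where 8.34% of all genes were, and the median difference was again -0.18.

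Within complex I, 3 of 6 catalytic subunits and 20 of 28 accessory subunits were lower. Ndufs4, an accessory subunit of the arm that reaches into the matrix, had a lowest, median and highest value of 9.66, 10.15 and 11.17 in Responder tumours, against 9.75, 10.77 and 11.42 in NonResponder tumours. The groups overlapped, and the fitted difference was -0.48 ± 0.13 (SE, 1.39-fold lower, limma adjusted p = 0.00364). All 4 probe sets of Ndufs4 were lower, by 0.32 to 0.48. Ndufb2, in the membrane arm, was 1.39-fold lower at 9.94, 11.09 and 12.14 in Responder tumours, against 10.20, 11.68 and 12.43 in NonResponder tumours (limma adjusted p = 0.00612). Other Ndufb subunits fell too, among them Ndufb1 by 0.41, Ndufb6 by 0.33 and Ndufb5 by 0.31 on the log2 scale. Ndufb7 and the dim Ndufb4 had differences of 0.02 each and did not pass. Of the complex I subunits, Ndufb5 had the smallest p (limma adjusted p = 0.00078). Ndufa7, an accessory subunit, fell by 0.38. Of the subunits that carry electrons, Ndufv2 fell by 0.24, whereas the differences of Ndufv1, which binds NADH, and of Ndufs1, the largest iron-sulfur subunit, were -0.02 ± 0.06 and -0.09 ± 0.07 and did not pass the threshold.

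The Ndufaf factors, which build complex I, included the largest falls of the 90 genes. Of the 8 genes 6 were lower and 1 was higher. Ndufaf5, which hydroxylates a subunit during assembly, had a lowest, median and highest value of 7.08, 8.25 and 9.56 in Responder tumours, against 7.42, 9.06 and 9.86 in NonResponder tumours. It was 1.52-fold lower (log2 difference -0.60 ± 0.18, limma adjusted p = 0.00695), with overlapping groups. Ndufaf6, needed in early assembly, was 1.51-fold lower, at 6.99, 8.11 and 9.16 in Responder tumours, against 7.26, 8.82 and 9.48 in NonResponder tumours (limma adjusted p = 0.00205). Ndufaf2, a chaperone of late assembly, fell by 0.48 and Ndufaf4 by 0.41. Ndufaf3, known as the assembly partner of Ndufaf4, went the other way: it had 7.62, 7.96 and 8.72 in Responder tumours, against 7.59, 7.76 and 8.68 in NonResponder tumours (log2 difference 0.18 ± 0.06, limma adjusted p = 0.0148).

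Complex II is also an enzyme of the tricarboxylic acid cycle, and 2 of its 4 genes were lower. Sdhb, the iron-sulfur subunit, had a lowest, median and highest value of 11.58, 12.30 and 12.67 in Responder tumours, against 11.89, 12.54 and 12.90 in NonResponder tumours, a fall of 0.24 ± 0.06 (limma adjusted p = 0.00149). Sdhd, the membrane anchor whose promoter is printed above, fell by 0.20 ± 0.05 (limma adjusted p = 0.0012). The other anchor, Sdhc, differed by -0.05 ± 0.06 and did not pass. Sdha, the flavoprotein that oxidises succinate, had 10.39, 10.95 and 11.40 in Responder tumours, against 10.15, 10.77 and 11.23 in NonResponder tumours (log2 difference 0.13 ± 0.08, limma adjusted p = 0.161). The 4 probe sets of Sdha disagreed. Fitted over all probe sets, the second brightest was higher by 0.22 and the dimmest lower by 0.13, both past the threshold, and the remaining pair did not pass.

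In complex III the small subunits Uqcr10 and Uqcrq each fell by 0.30 and Uqcr11 by 0.26. Uqcrfs1, the Rieske iron-sulfur protein, had a lowest, median and highest value of 10.68, 11.31 and 11.55 in Responder tumours, against 10.98, 11.48 and 11.93 in NonResponder tumours, a fall of 0.21 ± 0.06 (limma adjusted p = 0.00261). Of the core proteins, Uqcrc2 fell by 0.26 ± 0.09, while the difference of Uqcrc1 was 0.03 ± 0.06 and did not pass.

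In complex IV, Ndufa4 had a lowest, median and highest value of 11.90, 13.05 and 13.88 in Responder tumours, against 12.18, 13.48 and 13.81 in NonResponder tumours, a fall of 0.36 ± 0.10 (limma adjusted p = 0.00474). Cox4i1, the common form of subunit 4, fell by 0.15, Cox6c by 0.16, Cox7a2 by 0.15 and Cox8a by 0.14. Cox6b1 (-0.13 ± 0.06, limma adjusted p = 0.0719) and Cox6a1 (-0.03 ± 0.02) did not pass. Fitted over all probe sets, a dimmer probe set of each did pass, with differences of -0.20 for Cox6b1 and -0.16 for Cox6a1. Cox7a2l, the supercomplex factor, fell by 0.28.

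In complex V the F1 head, which makes ATP, and the parts in the membrane gave different counts. Of 5 F1 subunits 2 were lower (median -0.03), of 3 genes of the c ring 2 (-0.09), of 4 peripheral stalk subunits 3 (-0.21) and of 5 small membrane subunits 5 (-0.23). Whether these groups differ was not tested. Atp5b and Atp5a1, the subunits that carry the nucleotide sites, differed by -0.03 ± 0.05 and -0.02 ± 0.05. Atp5mpl, a small membrane subunit, had a lowest, median and highest value of 11.49, 12.07 and 12.91 in Responder tumours, against 11.53, 12.51 and 13.25 in NonResponder tumours, a fall of 0.36 ± 0.10 (limma adjusted p = 0.00343). Atp5o, in the peripheral stalk, fell by 0.25 ± 0.06 (limma adjusted p = 0.00116) and Atp5j by 0.19. Atp5k and Atp5h, with the promoters printed above, each fell by 0.23. The 3 genes Atp5g1, Atp5g2 and Atp5g3 encode the same mature c subunit. Atp5g1 fell by 0.30 and Atp5g3 by 0.07, and Atp5g2 had a difference of -0.09 ± 0.04 that did not pass.

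Probe sets of a gene did not always share a call. Of the 51 genes with several probe sets, all of them gave the same call in 15, some were not called in another 15, only another than the brightest was called in 9, and none was called in 11. For Atp5c1, the central stalk of complex V, the calls opposed each other: the brightest probe set was lower by 0.23 and a dimmer one higher by 0.15.

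The tissue forms followed their own patterns. Cox6a2, Cox7a1 and Cox8b, the heart and muscle forms of complex IV subunits, did not pass between Responder and NonResponder tumours (log2 differences -0.04 ± 0.26, 0.01 ± 0.24 and 0.26 ± 0.31). Their medians were higher in the 23 arrays with high muscle markers than in the other 67. These were 8.87 against 7.51 for Cox6a2, 5.98 against 5.14 for Cox7a1 and 6.94 against 5.24 for Cox8b. The ranges overlapped for all 3 genes, and Responder replicate 20 had a Cox8b value of 8.43 at a muscle marker mean of 5.2. Cox6a2 ran from 7.74 to 12.97 in the 23 arrays with high muscle markers, against 6.95 to 8.02 in the other 67. Cox8b ran from 5.94 to 11.87 there, against 4.49 to 8.43, and Cox7a1 from 4.81 to 10.60, against 4.08 to 6.45. Responder replicate 21, with the highest muscle marker mean (13.11), also held the highest values of all 3 genes (12.97, 10.60 and 11.87 for Cox6a2, Cox7a1 and Cox8b). Medians of the common forms were close: Cox6a1 had a median of 13.92 in the arrays with high muscle markers, against 13.91 in the others, and Cox8a 12.08 against 12.17.

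**Figure D3:**
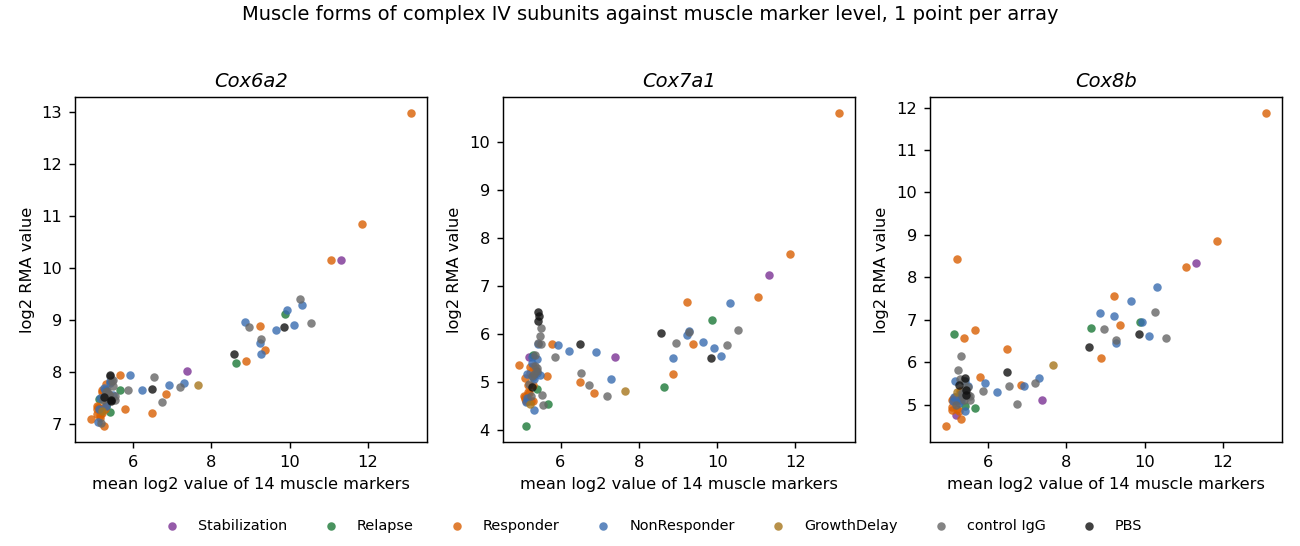
Log2 RMA values of Cox6a2, Cox7a1 and Cox8b (y axes) against the mean log2 value of 14 skeletal muscle markers (x axis), 1 point per array, coloured by group. The array at the far right of each panel is Responder replicate 21, with a marker mean of 13.11.

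Among the remaining forms, Cox4i2, the oxygen-responsive form of subunit 4, fell by 0.23 ± 0.06 (limma adjusted p = 0.00186), and Cox8c, known from testis, fell by 0.20 ± 0.04 (limma adjusted p = 0.00059). Cox6b2 (-0.02 ± 0.07) and Cox7b2 (-0.10 ± 0.04, limma adjusted p = 0.0645) did not pass. Ndufa4l2, a paralogue of Ndufa4 induced by hypoxia, had a lowest, median and highest value of 6.48, 8.76 and 11.27 in Responder tumours, against 7.47, 8.33 and 9.31 in NonResponder tumours. Its difference of 0.39 ± 0.23 did not pass (limma adjusted p = 0.138).

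The Responder minus NonResponder differences were also taken inside each title series. In the larger, 1 of the 90 genes was lower and 0 were higher, where 2.01% and 0.616% of all genes were, and 39 were lower at an unadjusted p under 0.05 in limma. The median difference was -0.17 and 85 of 90 were negative. In the smaller series 37 were lower and 1 was higher, where 22.4% and 14.3% of all genes were, with a median of -0.21 and 75 of 90 negative. The difference between the series was tested as an interaction in limma. It was past the threshold for 0 of the 90 genes, as for 0% of all genes, with 0 lower and 2 higher at an unadjusted p under 0.05 (Cox8b and Ndufaf3). By complex, medians in the larger series were -0.16, -0.16, -0.22, -0.11 and -0.17 for complexes I to V. In the smaller series they were -0.22, -0.07, -0.27, -0.19 and -0.25. Complex II was the only one of the 5 with a median nearer 0 in the smaller series.

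**Figure D4:**
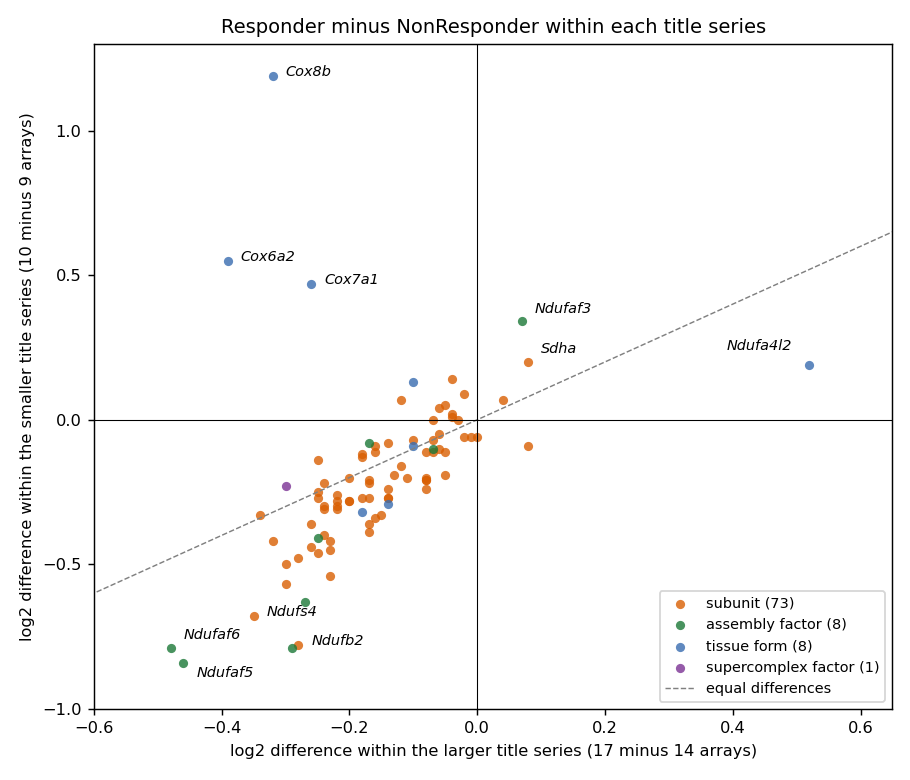
Responder minus NonResponder log2 differences within the smaller title series (y axis) against those within the larger (x axis), 1 point per gene, coloured by role, with a dashed line of equal differences. Most genes lie at the lower left, where both differences are negative. Cox8b, Cox6a2 and Cox7a1 lie above 0 on the y axis and below 0 on the x axis.

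Against control IgG, Responder tumours had lower levels of 54 of the 90 genes, where 22.8% of all genes were lower, and of these 90 none was higher, where 14.5% of all genes were. At an unadjusted p under 0.05 limma put 59 lower and 1 higher. The fit borrows part of this difference from the smaller title series, which holds no control IgG arrays. The 8 control IgG arrays in a series of their own do not enter it. All fitted differences with control IgG thus rest on the 14 such arrays of the larger series, while the ranges given cover all control IgG arrays. The direct difference inside the larger series called 45 of 90 lower, where 16.5% of all genes were. Both comparisons with Responder tumours share the Responder arrays. The largest falls were Ndufaf5 (-0.64 ± 0.22), Ndufaf6 (-0.55 ± 0.18) and Ndufs4 (-0.54 ± 0.16). Ndufs4 had 9.66, 10.15 and 11.17 in Responder tumours, against 9.78, 10.87 and 11.48 in control IgG tumours (limma adjusted p = 0.00882), with overlapping groups. The median difference of complex III was -0.32, that of complex I -0.22 and that of complex II -0.06. Sdha again stood on the positive side (0.20 ± 0.09, limma adjusted p = 0.0784) without passing. All 7 T cell and 7 of 8 macrophage markers were higher in Responder than in control IgG tumours, where 14.5% of all genes were. None of 9 fibroblast markers passed, and 2 of their differences were negative (median 0.31). Of 10 melanocyte markers 4 were lower, where 22.8% of all genes were. The part of these cells was not tested.

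Between NonResponder and control IgG tumours no difference was detectable. In limma 0 of the 90 genes passed in either direction, as did 0% of all genes, and 0 of the 90 had an unadjusted p under 0.05. Inside the larger series the direct difference also called 0 (0% of all genes), with 0 lower and 0 higher at an unadjusted p under 0.05 in limma. Medians were -0.02 in complexes I, III, IV and V and 0.06 in complex II. For Ndufs4 the lowest, median and highest values were 9.75, 10.77 and 11.42 in NonResponder tumours, against 9.78, 10.87 and 11.48 in control IgG tumours, an overlap over nearly the whole range.

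Relapse tumours were lower than NonResponder tumours for 23 of the 90 genes, where 11.9% of all genes were lower, and higher for 0, where 8.43% of all genes were higher. At an unadjusted p under 0.05 limma put 53 lower and 3 higher. The genes called lower were 8 of 34 in complex I, 1 of 4 in complex II, 2 of 8 in complex III, 1 of 10 in complex IV and 8 of 17 in complex V, with Cox7a2l, Cox4i2 and Cox8c besides. Ndufb2 and Ndufs4 each fell by 0.62 and Atp5mpl by 0.59. Atp5mpl had a lowest, median and highest value of 11.64, 11.90 and 12.31 in Relapse tumours, against 11.53, 12.51 and 13.25 in NonResponder tumours (SE 0.16, limma adjusted p = 0.0133). The Relapse range lay within the lower part of the NonResponder range. Atp5e, in the F1 part, fell by 0.56 ± 0.18.

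This count moved with the choice of arrays. Without NonResponder replicate 14 and Responder replicate 20, the arrays with high B cell markers, 47 genes were lower, where 19.2% of all genes were. Without the arrays with high muscle markers it was 0, where 1.06% of all genes were, and 2 of 6 Relapse arrays were left out there. Inside the smaller title series 17 were lower and 0 higher (8.51% and 4.57% of all genes, median -0.35), and inside the larger 0 (0% of all genes, median -0.13, with 2 lower at an unadjusted p under 0.05 in limma). In the fit of all arrays 7 of 9 fibroblast, 3 of 7 T cell and 4 of 8 macrophage markers were higher, where 8.43% of all genes were. Their median differences were 1.56, 0.77 and 0.89, and none was negative. Fibroblast markers averaged 9.16 to 11.65 per array in Relapse tumours, against 6.50 to 11.66 in NonResponder tumours. T cell markers averaged 6.49 to 8.41, against 5.36 to 10.15. The part of these cells was not tested.

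Against control IgG, with which these arrays were compared as well, Relapse tumours were lower for 29 of 90 genes, where 13.1% of all genes were lower, and higher for 0, where 10.5% were (48 lower and 4 higher at an unadjusted p under 0.05 in limma). Ndufs4 fell by 0.68 ± 0.23, and Atp5e and Atp5mpl by 0.62 each. The count was 1 with no title series term, where 0.918% of all genes were lower, and 18 after median centring, where 7.83% were. Of the 7 T cell markers 3 were higher in Relapse tumours (array means of 6.49 to 8.41, against 5.45 to 7.04 in control IgG tumours). None of 9 fibroblast markers (9.16 to 11.65, against 7.80 to 11.81) or 8 macrophage markers (9.80 to 11.04, against 8.97 to 11.71) passed in limma, with 1 and 3 higher at an unadjusted p under 0.05, but all of their differences were positive, with medians of 0.70 and 0.63. The part of these cells was not tested. Inside the larger series 0 of 90 passed, where 0.044% of all genes were lower, with a median of -0.18 and 4 lower at an unadjusted p under 0.05. Between Relapse and Responder tumours limma called 0 of 90 genes, as for 0% of all genes, with 1 lower and 2 higher at an unadjusted p under 0.05. The median there was -0.04. Ndufs4 had 9.83, 10.18 and 10.39 in Relapse tumours, against 9.66, 10.15 and 11.17 in Responder tumours.

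**Figure D5:**
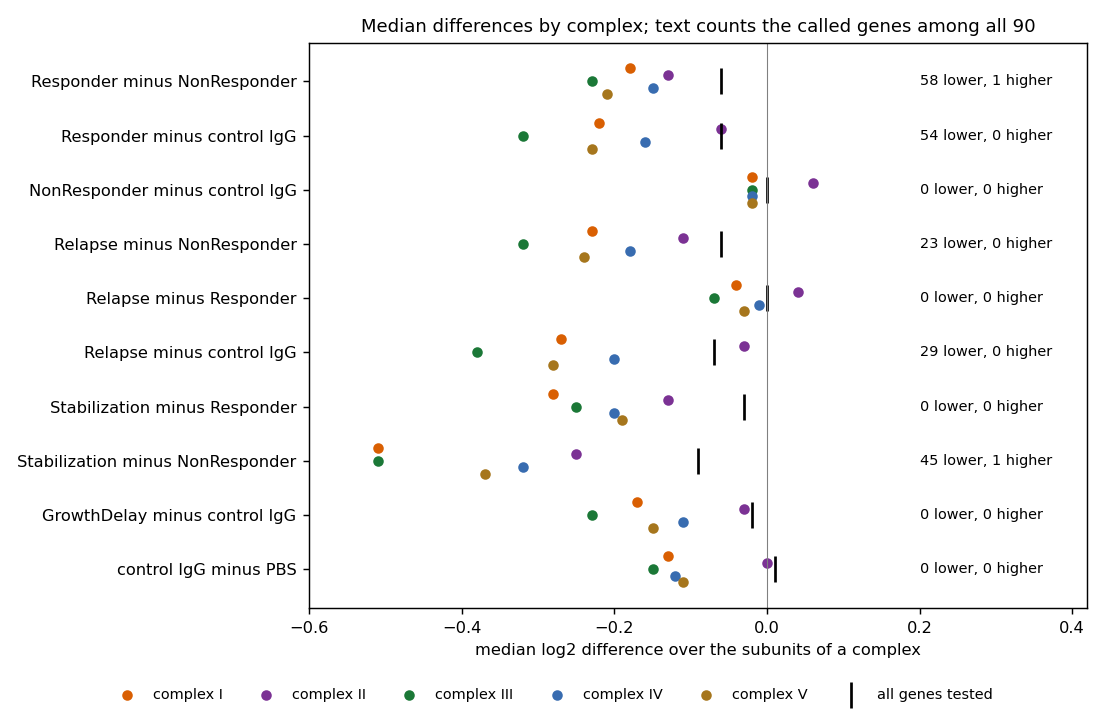
Median log2 difference (x axis) over the subunits of each complex, 1 row per comparison and 1 colour per complex, with a black tick at the median of all genes tested. The text at the right counts the genes called lower and higher among the 90: 58 and 1 between Responder and NonResponder tumours, 45 and 1 between Stabilization and NonResponder tumours.

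In the deposited values, not adjusted for title series, the 3 Stabilization tumours had the lowest medians of all groups in each of the 5 complexes. All 3 lie in the smaller title series. Against NonResponder tumours 45 of 90 genes were lower, where 11.9% of all genes were, and 1 was higher, where 10.5% of all genes were. The median was -0.38, against -0.09 over all genes, with -0.51 in complexes I and III, -0.37 in complex V, -0.32 in complex IV and -0.25 in complex II. Of the 6 catalytic subunits of complex I 5 were lower. Ndufaf6 had 6.82, 7.57 and 8.73 in Stabilization tumours, against a lowest, median and highest value of 7.26, 8.82 and 9.48 in NonResponder tumours (log2 difference -1.25 ± 0.34, limma adjusted p = 0.00858). One of the 3 Stabilization arrays lay below every NonResponder array and another near the NonResponder median. Ndufaf5 fell by 1.14 and Ndufb2 by 0.97. Uqcrfs1 had 10.19, 10.81 and 11.44 in Stabilization tumours, against 10.98, 11.48 and 11.93 in NonResponder tumours (log2 difference -0.65 ± 0.12, limma adjusted p = 0.000921), with 2 of the 3 Stabilization arrays below every NonResponder array. The testis form Cox6b2 was higher: 5.56, 5.59 and 6.55 in Stabilization tumours, against 4.99, 5.39 and 5.72 in NonResponder tumours (log2 difference 0.48 ± 0.15, limma adjusted p = 0.0187). The gene was dim, with a mean of 5.38 over all arrays, under the filter at 6. Only the Stabilization array at 6.55 lay above the NonResponder range.

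The 3 Stabilization arrays differed widely among themselves. The mean over all subunits was 11.11 in replicate 1, 11.53 in replicate 2 and 11.90 in replicate 3. Fibroblast markers averaged 13.06, 11.83 and 10.02 and melanocyte markers 6.95, 8.89 and 10.11 on the same arrays, so the arrays ran in opposite orders for fibroblast markers and for the subunits. The part of these cells was not tested. Without replicate 1 the count of genes lower than in NonResponder tumours was 0, where 0.0055% of all genes were lower. Without replicate 2 it was 23 (1.84% of all genes) and without replicate 3 it was 67 (21% of all genes), so calls over all genes moved with the arrays left out as well. Against Responder tumours limma called 0 of 90, where 0.0934% of all genes were lower and 0.225% higher, with 28 lower and 1 higher at an unadjusted p under 0.05 and a median of -0.23. Without replicate 3 the count of lower genes was 31, where 8.48% of all genes were lower, and without replicate 1 it was 0 (0% of all genes).

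Between GrowthDelay and control IgG tumours, limma found no gene past the threshold: 0 of 90 genes, as for 0% of all genes, with 5 lower and 0 higher at an unadjusted p under 0.05 and a median of -0.16. The 2 GrowthDelay arrays had Ndufs4 values of 9.96 and 10.52, within the control IgG range of 9.78 to 11.48. Between control IgG and PBS tumours 0 of 90 passed in limma, where 0.0055% of all genes were lower and 0% higher. At an unadjusted p under 0.05 limma put 1 lower and 0 higher. With title series in the model, this difference rests on the 14 control IgG and 3 PBS arrays of the larger series. The median was -0.13, against 0.01 over all genes. Over all arrays of these groups, Ndufs4 had a lowest, median and highest value of 9.78, 10.87 and 11.48 in control IgG tumours, against 10.49, 11.23 and 11.82 in PBS tumours.

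Other genes of the pathway were counted in the same Responder minus NonResponder fit, in which 29.8% of all genes were lower and 17.2% higher. Of 14 electron carrier genes 9 were lower, among them Etfa, which passes on electrons from fatty acid oxidation (-0.36 ± 0.08), and Coq6 and Coq7 of ubiquinone synthesis (-0.28 and -0.23). Of 22 assembly factors outside the symbol rule 9 were lower, with Sdhaf1 for complex II (-0.30) and Cox11 and Cox16 for complex IV (-0.29 and -0.51). The tricarboxylic acid cycle and pyruvate dehydrogenase genes were called at about the rates of all genes: 5 of 15 (33.3%) were lower and 3 higher, with Fh1 (-0.36) and Suclg1 (-0.17) among the first and Suclg2 (0.60) among the second. Of 14 regulators of mitochondrial biogenesis 6 (42.9%) were lower and 3 higher, the second count also near the rate of all genes. Esrra, a nuclear receptor, fell by 0.21, while Pprc1 and Polrmt, a coactivator and the mitochondrial RNA polymerase, rose by 0.28 and 0.31. Of 6 uncoupling and ATP synthase regulators 2 (33.3%, again close to all genes) were lower, the inhibitor Atpif1 (-0.32) and the ATP carrier Slc25a5 (-0.17). Among 11 hypoxia and glycolysis genes 4 were higher and 0 lower, led by Hk2, which traps glucose in the cell (0.46 ± 0.11), Aldoa (0.26) and Ndrg1 (0.37). Of 9 proliferation genes 5 were lower, with Pcna (-0.25), Birc5 (-0.28) and Ccnb2 (-0.34), and 0 higher. Only these 5 had negative differences. The rest ran up to 0.26, with 1 higher at an unadjusted p under 0.05 in limma. Inside the larger title series 0 of the 9 were lower, where 2.01% of all genes were. In the smaller series 5 were, where 22.4% of all genes were.

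Across the 90 arrays the subunits mostly moved together. After centring each title series, a subunit's correlation with the mean of the other subunits had a median of 0.88, and 56 of 73 exceeded 0.5. The arrays share groups and normalization, so this is a description. The 6 subunits with a negative correlation were Sdha (-0.66), Uqcrc1 (-0.40), Ndufa13 (-0.22), Atp5a1 (-0.17), Atp5d (-0.06) and Atp5b (-0.01). None of these 6 passed between Responder and NonResponder tumours. Ndufaf3, the 1 gene that rose, had a correlation of -0.50. The genes outside the listed sets whose values followed the subunit mean most closely were Phpt1 (0.97), Tmem147 (0.96), Mrpl12, Acot13 and Uqcc2 (0.95 each), over the same 90 arrays.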

How the data were processed

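The deposited table holds log2 values that the authors normalized with RMA (robust multi-array average), per the submitters' processing notes, which also name limma; no versions are given in the sources used here. The 90 genes and the other gene lists were chosen with earlier results of these data known. Of 45101 probe sets, 64 controls were left out, as were 932 with several symbols and 9160 not listed in the annotation. Groups come from the treatment labels.

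All 90 arrays entered 1 model per gene (limma 3.58.1, R 4.3.3, lmFit and eBayes) with group and title series as fixed terms. Calls are two-sided, Benjamini-Hochberg adjusted over 18193 genes, threshold 0.05. Means, medians and ranges per group are of the deposited values; differences and their SE come from the fit. Differences inside a title series, and their interaction, come from a second limma fit in which every combination of group and series had its own mean. The procedure was tested on simulated data. Precision is limited by the number of arrays, which carry no read depth.

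Named genes are the 10 largest rises and falls among called members for Responder minus NonResponder, 3 and 3 for other comparisons, the 4 smallest p per complex, all isoform sets, Sdha to Sdhd, up to 3 genes per other list and the 5 nearest genes outside the lists. Others were named after their values were seen. Alternatives were median centring, quantile normalization, no title series term, each series alone, a filter at a mean log2 value of 6, other probe set choices, trend and robust eBayes, and leaving out arrays.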

Additional observations from a re-analysis of the deposited data

Results flagged for a closer look

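Within groups of 4 to 10 arrays (Relapse and PBS), 7 of 108 sets of values had 1 array far from the others by Dixon's criterion; chance alone flags about 1 in 20. In PBS replicate 5 the difference between 3' and 5' control probe sets was 4.31 for Gapdh, against -0.20 to 0.26 in the other 6 PBS arrays. For Actb it was 6.09, against 0.24 to 0.92. PBS replicate 1 was high for Cox6a1 (13.99, against 13.85 to 13.91) and low for Cox8c (7.74, against 7.94 to 8.08). Relapse replicate 2 was high for Atp5g3 (13.41, against 13.28 to 13.31 in the other 5 Relapse arrays) and for Sdhc (10.57, against 10.05 to 10.22). Relapse replicate 1 was low for Ndufaf4 (9.82, against 10.28 to 10.53).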

How the results depend on the processing

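No paired analysis was possible because the labels carry no replicate numbers and the replicates were numbered in accession order. Percentages in brackets are the share of all genes called lower in the same fit. The median difference over the 90 genes was -0.21 to -0.16 for Responder minus NonResponder under 13 alternatives and -0.24 to -0.16 for Responder minus control IgG under 12. Genes called lower stayed between 39 and 56 for Responder minus control IgG, and were 0 under every alternative run for NonResponder minus control IgG, Relapse minus Responder, GrowthDelay minus control IgG and control IgG minus PBS. For Responder minus NonResponder the count was 19 (8.34%) without arrays high in muscle markers, 0 (2.42%) with the larger title series fitted alone and 22 (9.78%) with the smaller alone. For Relapse minus NonResponder it was 8 (6.06%) with no title series term, 14 (8.59%) after quantile normalization, 51 (21.9%) without NonResponder replicate 14 and Responder replicates 20 and 21, 47 (19.2%) without the first 2 of these, 0 (1.06%) without arrays high in muscle markers, 0 (0%) with the larger series alone and 5 (1.58%) with the smaller. For Relapse minus control IgG it was 1 (0.918%) with no title series term, 18 (7.83%) after median centring and 18 (11%) without arrays high in muscle markers. For Stabilization minus Responder it was 6 (1.91%) with no title series term, 17 (7.79%) without the 3 arrays, 7 (1.51%) without 2 of them, 1 (0.247%) without arrays high in muscle markers, and 0 to 31 (0% to 8.48%) leaving out each Stabilization array. For Stabilization minus NonResponder it was 11 (1.89%) without arrays high in muscle markers and 0 to 67 (0.0055% to 21%) leaving out each Stabilization array. Leaving out PBS replicate 5 gave 59 (30.2%) for Responder minus NonResponder. That array lies in the series of PBS arrays alone, so leaving it out could alter the estimate of spread but no fitted difference. For control IgG minus PBS this alternative therefore could not show whether the array matters. The alternatives without PBS replicate 5 and without NonResponder replicate 14 and Responder replicate 20 were chosen after seeing the data. With probe sets ending in _s_at, _x_at or _a_at left out, a dimmer probe set stood for 2 genes and the sign turned: Atp5c1 was 0.15 for Responder minus NonResponder, 0.03 for Responder minus control IgG, 0.09 for Relapse minus NonResponder and 0.02 for Stabilization minus NonResponder, and Ndufb2 was 0.02 for Relapse minus NonResponder and 0.01 for Stabilization minus NonResponder. Beyond the use of fewer arrays or other probe sets, the cause of these changes was not tested.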
